A study of Mus musculus with 2 samples.

Results

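The genes described here are 10 immunoglobulin constant genes and their partners, followed in the RNA of mouse regulatory T cells. They are Ighm, Ighd and Igha of the heavy chain, Igkc of the kappa light chain, Iglc1, Iglc2 and Iglc3 of the lambda light chain, the joining chain gene Jchain, and Cd79a and Cd79b of the B cell receptor. They were taken by symbol from the 55536 annotated genes of the deposited tables, because Ighm had been seen to stand far above B cell genes in these same data. The level of Ighm, the levels of the other members and their ratios are therefore given as a description, with no test.

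The RNA came from Treg primary cells, the CD4 T cells that restrain immune responses, of a male mouse aged 9 weeks. A single group was sequenced as polyA plus RNA, in 2 libraries that are technical replicates of biological replicate 1. The source is labelled as the whole organism, and no label names the strain, the organ, the sort markers or the number of cells. No other cell type was sequenced for comparison, and the SD between libraries says nothing of other mice.

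In B cells, a V, a D and a J segment of the heavy chain locus are joined, and the joined exon is spliced to the exons of Ighm, the constant gene nearest to the J segments. A choice of final exons then gives either a membrane form, held in the B cell receptor with CD79A and CD79B, or a secreted form, which the joining chain links into polymers. Heavy chain loci with no joined V segment are known to give germline transcripts, which carry constant exons without a V exon. T cells join the segments of T cell receptor genes by the same recombinase.

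The last coding bases of Ighm are shown because they separate its membrane and secreted transcripts, to which the deposited tables assign reads. Both are read from GENCODE M21 transcripts on GRCm38, on the minus strand of chromosome 12. The lower-case letters are the last 30 coding bases that both forms share, and the capitals are the coding bases of one form only. The capitals of the membrane transcript Ighm-202 run over 122 bases in 2 exons, from 113419068 to 113418829. Those of the secreted transcript Ighm-201 run over 59 bases, from 113420928 to 113420870.
Ighm-202, membrane: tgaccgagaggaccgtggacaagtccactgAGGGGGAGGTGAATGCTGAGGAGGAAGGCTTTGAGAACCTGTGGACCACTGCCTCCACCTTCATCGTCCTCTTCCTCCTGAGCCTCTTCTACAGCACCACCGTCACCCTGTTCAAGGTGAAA
Ighm-201, secreted: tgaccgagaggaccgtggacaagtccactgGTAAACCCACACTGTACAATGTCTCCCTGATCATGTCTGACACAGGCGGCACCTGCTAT

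Igha, the constant gene of IgA, is shown in the same way because its libraries differed most among the members. The capitals of the membrane transcript Igha-202 run from 113256397 to 113256204, and those of the secreted transcript Igha-201 from 113258829 to 113258771, on the minus strand of chromosome 12.
Igha-202, membrane: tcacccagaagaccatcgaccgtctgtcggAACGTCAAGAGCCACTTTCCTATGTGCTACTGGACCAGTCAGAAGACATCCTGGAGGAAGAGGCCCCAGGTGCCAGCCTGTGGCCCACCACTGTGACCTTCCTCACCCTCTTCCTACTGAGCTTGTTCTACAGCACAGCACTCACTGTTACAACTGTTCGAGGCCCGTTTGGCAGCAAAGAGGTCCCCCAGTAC
Igha-201, secreted: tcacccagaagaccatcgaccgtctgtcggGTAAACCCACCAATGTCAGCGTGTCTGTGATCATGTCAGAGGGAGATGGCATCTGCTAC

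The members fell far apart in level. Ighm, at chromosome 12 from 113418558 to 113422730 (GRCm38, ENSMUSG00000076617), stood at 930 and 813 TPM in libraries 1 and 2, a mean of 871 ± 82.9 TPM (SD, n = 2 technical libraries, as for every SD here). TPM corrects reads for transcript length and is scaled to the same total in each library, so that levels of different genes can be set side by side. The deposited posterior SD of the gene's estimated count was 0 in both libraries, so the model gave no doubt over which gene its reads belong to. Of all annotated genes 134 had a higher mean TPM, and of 22028 protein-coding genes 110 did.

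The protein-coding genes closest to Ighm in level were housekeeping and leukocyte genes. Just above it lay the ribosomal protein genes Rpl13 at 892 TPM and Rps7 at 891 TPM, and Arpc2, of the actin-nucleating complex, at 875 TPM. Just below it lay Lcp1, encoding the leukocyte actin bundler plastin, at 871 TPM, Selplg, encoding the selectin ligand PSGL-1, at 850 TPM, and Rpl37 at 846 TPM. With 2 libraries these are genes of like level, and no likeness of pattern could be measured.

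**Figure D1:**
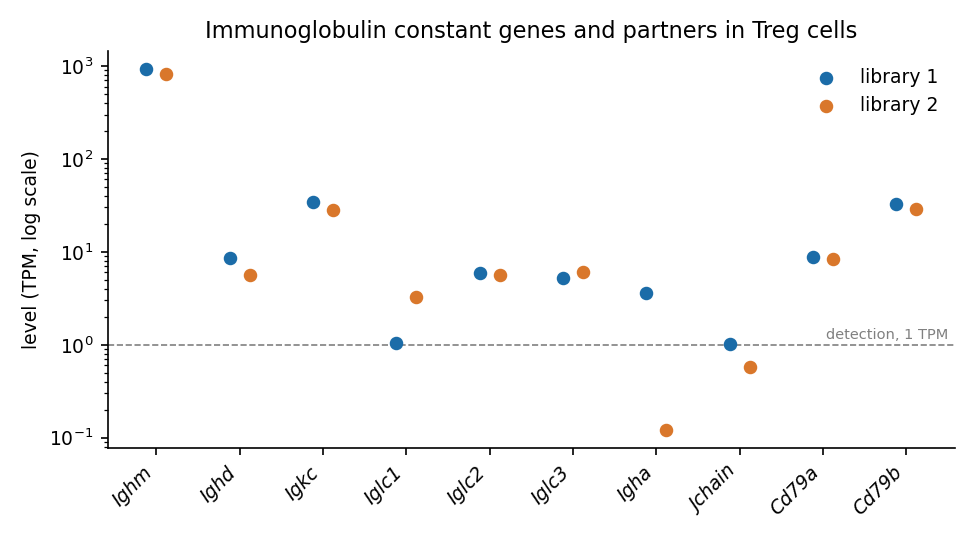
Level of each member in TPM (log scale) in library 1 and library 2, with the detection minimum of 1 TPM as a dashed line. Ighm sits at 930 and 813 TPM, and the next members, Igkc and Cd79b, lie between 28.05 and 34.47 TPM.

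The second heavy chain constant gene, Ighd, encodes the IgD heavy chain that mature B cells make from the same primary transcript as IgM. It lies 2233 bases downstream of Ighm, from 113406604 to 113416324, and stood at 8.57 and 5.65 TPM. The level of Ighm was thus 109 times that of Ighd in library 1 and 144 times in library 2.

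Igha lies farther downstream, 158321 bases from Ighm, at 113254830 to 113260236. It was at 3.59 TPM in library 1, from 88 estimated counts, and at 0.12 TPM in library 2, from 6. The libraries disagreed on this gene by more than on any other member, and it did not reach the detection minimum of 1 TPM in both.

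Among the light chain genes the kappa gene led. Igkc, on chromosome 6 from 70726435 to 70726966, stood at 34.47 and 28.05 TPM in libraries 1 and 2. The lambda genes, of which each encodes a constant region of its own, were lower. Iglc2, on chromosome 16 from 19198396 to 19200351, stood at 5.94 and 5.68 TPM. Iglc3, from 19065230 to 19065681 on the same chromosome, stood at 5.22 and 6.08 TPM. Iglc1, from 19061618 to 19062071, was lowest, at 1.05 and 3.25 TPM on 9 and 27 estimated counts. Igkc exceeded the summed lambda genes 2.82-fold in library 1 and 1.87-fold in library 2, so kappa was higher than lambda in both.

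The receptor partners were unequal. Cd79b, on chromosome 11 from 106311341 to 106314762, stood at 32.97 and 28.65 TPM. Cd79a, whose protein pairs with that of Cd79b to carry the signal of the B cell receptor, lies on chromosome 7 from 24897381 to 24902197 and stood at 8.77 and 8.34 TPM. Cd79b was 3.76 times Cd79a in library 1 and 3.44 times in library 2. Jchain, on chromosome 5 from 88519809 to 88527891, was at 1.02 and 0.58 TPM, the lowest mean of the members.

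In order of mean level the members ran Ighm, Igkc, Cd79b, Cd79a, Ighd, Iglc2, Iglc3, Iglc1, Igha and Jchain. The values of the libraries left a gap between Ighm and Igkc, between Cd79b and Cd79a, and between Iglc3 and Iglc1. The ranges of each other pair of neighbours overlapped, although Cd79a stood above Ighd in both libraries. At 1 TPM or more in both libraries, 8 of the 10 members were detected, Igha and Jchain being the exceptions. The same minimum was passed by 23.9% of all annotated genes, the share to be read beside each count of detected list genes below. The median of all 10 members, detected or not, was 6.46 TPM. That of the detected genes alone, an unlike set, was 22.8 TPM.

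The ratio of Ighm to its receptor partners was alike in both libraries. Ighm stood at 106 times Cd79a in library 1 and 97.5 times in library 2 (102 ± 6.08), and at 28.2 and 28.4 times Cd79b. Against Igkc, the ratio was 27.0 and 29.0. The mean ratio by M4 counts was 8.75 to Cd79b and 14.9 to Igkc, and without length correction of the estimated counts it was 91.1 to the short gene Igkc. By TPM these ratios moved little between the libraries. Both are technical replicates of 1 biological replicate, so this steadiness says nothing of cells or mice. Ratios to some other members moved more: 259 and 6773 for Igha, 886 and 250 for Iglc1, and 912 and 1401 for Jchain. In bulk RNA, few cells with much of a transcript and many cells with little cannot be told apart.

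Genes that mark B cells were low beside Ighm. Of 18 B cell identity genes 9 were detected, with a median of 1.55 TPM over the list. The highest was Cd72, an inhibitory receptor, at 50.14 and 37.63 TPM, and Ighm exceeded it 18.5-fold and 21.6-fold. Next came Ly6d at 5.85 and 4.77 TPM and Cd22 at 3.55 and 4.36 TPM. Defining B cell genes lay lower still: Ms4a1, encoding CD20, was at 2.17 and 1.15 TPM, and Pax5, the factor that commits cells to the B lineage, at 0.02 and 0.19 TPM. The TPM of all 18 genes summed to 79.72 in library 1 and 66.03 in library 2, and Ighm alone was 11.7 and 12.3 times that sum. By M4 counts Ighm was 2.49 times the summed list and 4.99 times Cd72. Because the members were chosen on this contrast, it supports nothing further.

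The plasma cell list held 4 detected genes of 7. Xbp1, the factor of the secretory program, stood at 129 and 109 TPM, Irf4 at 15.76 and 16.45 TPM and Prdm1 at 13.14 and 9.58 TPM, all of which T cells are also known to express. Derl3, of the secretory apparatus, was detected at 2.44 and 1.55 TPM. Sdc1 was at 0.18 and 0.27 TPM and Tnfrsf17 at 0.06 and 0.19 TPM. Mzb1 was at 0 and 0.10 TPM, but its estimate was uncertain, with a posterior SD of 3.69 counts in library 1 and M4 counts of 9 and 1. The list summed to 160.99 TPM in library 1 and 136.91 TPM in library 2. Jchain, a member that plasma cells are known to express strongly, was at 1.02 and 0.58 TPM. The part of plasma cells in the levels of the members was not tested.

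Of 6 B cell precursor genes 1 was detected, Dntt, the polymerase that adds bases at segment joints, at 1.5 and 1.15 TPM. Vpreb1, of the surrogate light chain that pairs with the IgM heavy chain in precursors, was at 1.49 and 0.41 TPM, and Vpreb2 was at 0.10 and 0 TPM. The recombinase genes Rag1 and Rag2 were at 0 in library 2 and at 0.01 and 0.03 TPM in library 1. No gene of the precursor list was near the level of Ighm. Ighm was chosen for standing far above B cell genes, so this contrast is a description only.

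The T cell genes spanned the level of Ighm. All 12 T cell and Treg genes were detected, from 109 TPM for Foxp3, the lineage factor of Treg cells, to 3814 TPM for Trbc2, a T cell receptor beta constant gene. Ighm was 8.59 and 7.35 times Foxp3, 2.78 and 2.70 times Cd4, and 0.380 and 0.377 times Trac, the alpha constant gene. By M4 counts, which are low for abundant genes, the mean ratio was 1.76 to Foxp3 and 1.19 to Cd4, and that to Trac turned to 2.40. Markers of cells outside the T and B lineages were read in the same way. Of 8 plasmacytoid dendritic cell genes 5 were detected, led by Bst2 at 97.12 and 102.7 TPM, Pacsin1 at 69.23 and 64.2 TPM, Irf8 at 32.8 and 27.89 TPM and Ccr9 at 18.29 and 15.28 TPM, while the narrower marker Siglech was at 0.57 and 0.09 TPM. Of 8 myeloid genes 4 were detected, and the highest was Lyz2 at 14.42 and 11.85 TPM. The list sums were 222.13 and 213.06 TPM for plasmacytoid dendritic cells and 29.71 and 25.63 TPM for myeloid cells, and their part in the level of Ighm was not tested.

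**Figure D2:**
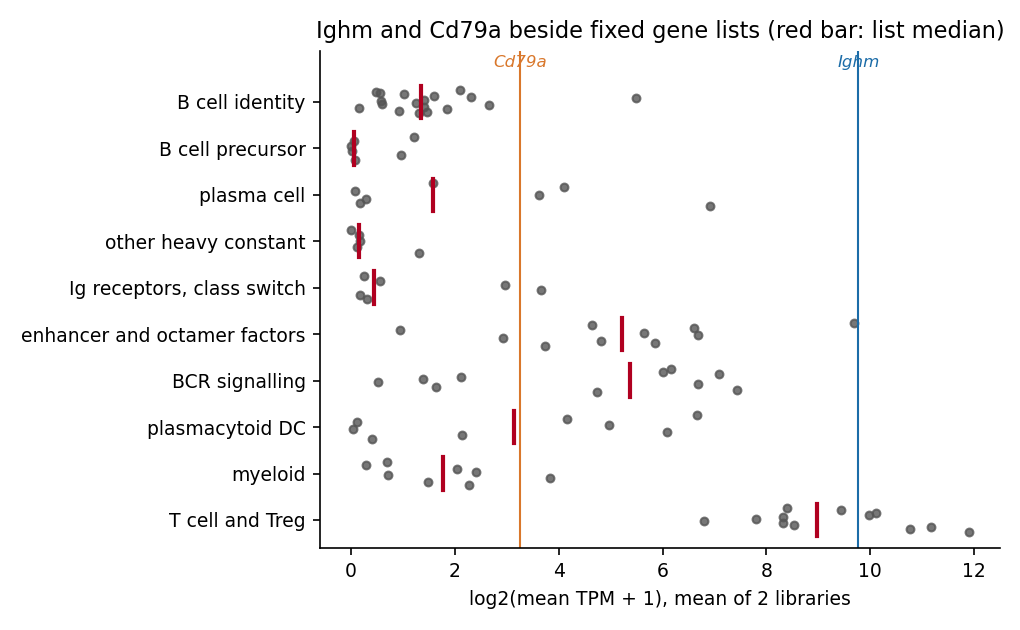
Mean level of each gene of 10 lists as log2(TPM + 1), with the list median as a red bar and Ighm and Cd79a as vertical lines. The B cell identity genes lie left of Ighm, the closest being Cd72, while several T cell and Treg genes lie to its right.

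V segments were not among the members, but Ighm, chosen for its high level, is what they are divided by here, so a low heavy share partly restates that choice and is a description. In a joined heavy chain transcript the V exon stands before the constant exons, so V and constant levels per length can be set side by side. Over 196 annotated heavy V segments the levels summed to 13.03 TPM in library 1 and 12.31 TPM in library 2, on 81.97 and 74 estimated counts. That was 1.40% and 1.51% of the Ighm level in libraries 1 and 2 (1.46 ± 0.0803%). The share was 6.42% by the deposited posterior mean TPM and 0.274% by estimated counts with no length correction, so its size depends strongly on the measure. No heavy V segment was detected at 1 TPM in both libraries, and 140 had 0 counts in both, and such a count allows up to 3 reads per library. The highest were Ighv5-6 at 1.99 and 0 TPM, Ighv6-3 at 1.23 and 0.64 TPM and Ighv8-6 at 0.19 and 1.35 TPM, so the leading segments changed with the library.

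The kappa V segments were far closer to their constant gene. Over 178 segments they summed to 21.55 and 21.07 TPM, or 62.5% and 75.1% of Igkc. Igkv14-111 was detected, at 1.19 and 2.29 TPM, while Igkv3-5 was at 2.97 TPM in library 1 and 0 in library 2 and Igkv8-19 at 0 and 1.90 TPM. The 3 lambda V segments summed to 2.24 and 4.58 TPM, or 18.3% and 30.5% of Iglc1 to Iglc4 together. Iglv1 held most of that, at 1.73 and 3.27 TPM, with Iglv2 at 0.23 and 1.31 TPM and Iglv3 at 0.28 and 0 TPM.

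The T cell receptor genes served as a scale for joined loci in the same RNA. Alpha V segments reached 65.9% and 70.9% of Trac, and beta V segments 46.3% and 47.5% of Trbc1 and Trbc2 together. By TPM the heavy share was lower than each of these in both libraries, by 47.0-fold and 46.8-fold against alpha, 33.0-fold and 31.4-fold against beta, and 44.6-fold and 49.6-fold against kappa. Against lambda it was lower by 13.1-fold and 20.1-fold. By posterior mean TPM each of these gaps was smaller. The heavy share of 6.42% then stood beside 69.8% for alpha, 47.0% for beta, 184% for kappa and 27.7% for lambda. These gaps were given no test, since Ighm was chosen for its level and the other constant genes of the comparison were not. Joined V exons carry changed bases at their joints, and how many such reads the model placed was not tested.

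**Figure D3:**
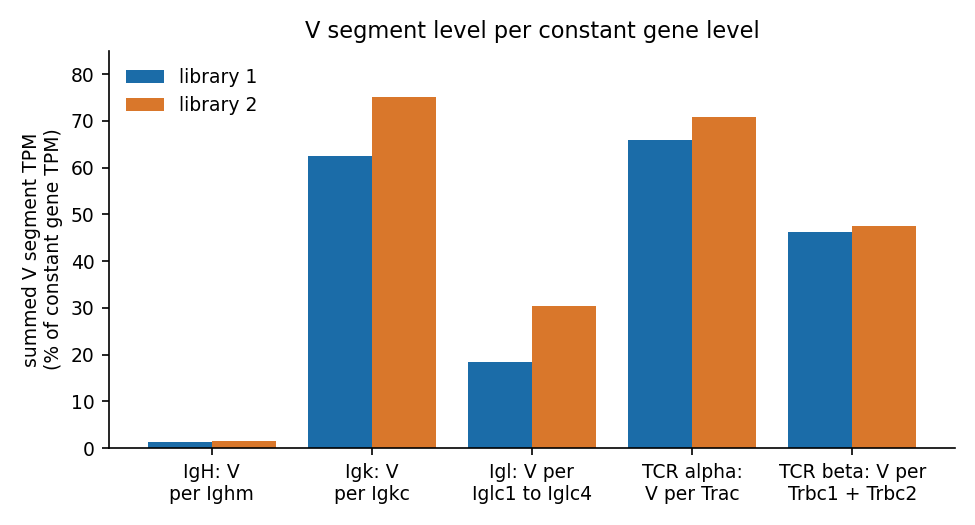
Summed V segment TPM as a percent of the TPM of the matching constant gene or genes, per library, for immunoglobulin and T cell receptor loci. The heavy chain bars, 1.40% and 1.51% of Ighm, are the lowest, and those of kappa, alpha and beta lie between 46.3% and 75.1%.

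The stretch between the J segments and Ighm is sparsely annotated, so few reads could be assigned to it. No other annotated gene overlaps Ighm, and its annotated transcripts begin at the exon of the first constant domain, 5783 bases from the nearest J segment. Within that gap 4 short miRNA annotations, Gm25747, Gm22175 and a pair named Gm24022, had at most 4.8 estimated counts each. Their effective lengths were 11 to 29 bases in library 1. No other annotated gene lies within the gap, so how many reads fell in the rest of it is not known. The tables have no row for a transcript that starts in this gap and is spliced to Ighm, so the 5′ ends of the Ighm reads are not known from them.

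**Figure D4:**
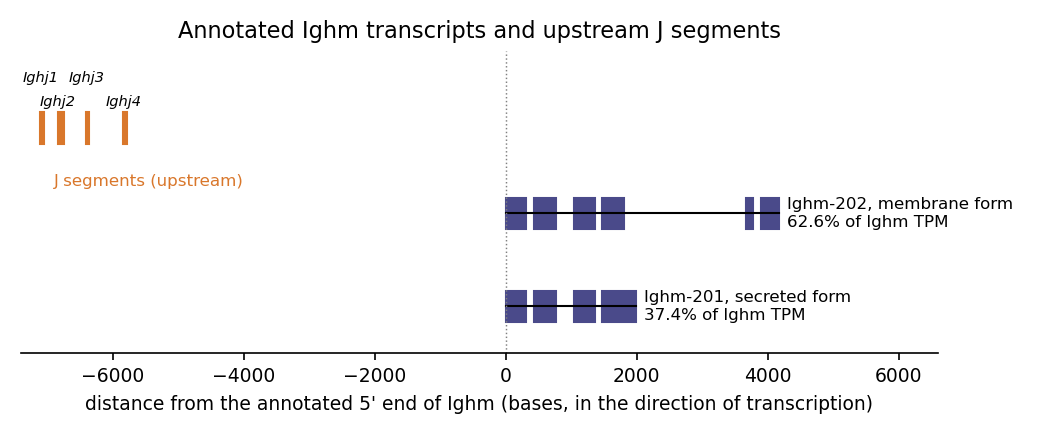
Exons of the annotated Ighm transcripts and the heavy chain J segments, by distance in bases from the annotated 5′ end of Ighm in the direction of transcription. Ighm-202 took 62.6% and Ighm-201 37.4% of Ighm TPM, and the nearest J segment ends 5783 bases upstream.

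The J segments of the heavy chain are shown because their short length sets what their values can mean. Ighj1 runs from 113429833 to 113429781 and Ighj4 from 113428567 to 113428514, on the minus strand of chromosome 12 (GRCm38, GENCODE M21).
Ighj1: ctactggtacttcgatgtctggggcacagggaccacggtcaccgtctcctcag
Ighj4: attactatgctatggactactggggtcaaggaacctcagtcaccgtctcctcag

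Ighj1, with 53 bases, had an effective length of 4 bases, so its 7 and 6 estimated counts gave 82.78 and 73.10 TPM. Over all heavy J segments there were 9 and 8 estimated counts. The 22 heavy D segments, of a median length of 17 bases, leave no room for a 50-base window, so their estimated counts of 0 carry no information. By the M4 counts, which are whole numbers, the heavy J segments had 154 and 115 counts, 84 and 75 of them on Ighj1. The heavy D segments had 6 and 6. How the M4 counts were made is not given. Reads were thus assigned to the heavy J segments in both libraries, and the tables do not say whether they were spliced to Ighm.

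The reads of Ighm were divided between its forms in nearly the same way in both libraries. Ighm-202, the membrane form with 6 exons, took 62.3% of Ighm TPM in library 1 and 63.0% in library 2, on 20208 and 17313 estimated counts. Ighm-201, the secreted form with 4 exons, took 37.7% and 37.0%, so the membrane form exceeded it 1.65-fold and 1.70-fold. The posterior SD of the Ighm-202 count was 188 and 186. Windows of 50 bases, the length that the effective lengths imply, were specific to Ighm-202 at 393 of 1649 positions and to Ighm-201 at 188 of 1444. The split therefore rests on the 3′ ends printed above and on the untranslated stretches that follow them.

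Ighd and Igha leaned to different forms. Ighd-202, the membrane form of IgD, took 83.8% of Ighd TPM in library 1 and 92.5% in library 2. For Igha, the secreted transcript Igha-201 held 73.66 of the 88 estimated counts of library 1 and 0 of the 6 in library 2, while the membrane transcript Igha-202 held 14.34 and 6. The Igha reads that set library 1 apart were thus assigned mainly to the secreted form. With 6 counts in library 2, its split says little.

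The remaining heavy constant genes were low. None of 5 matched genes, Ighg1, Ighg2b, Ighg2c, Ighg3 and Ighe, was detected, and Ighg2a had no match in the annotation. Ighg3, an IgG constant gene, had 52 estimated counts in library 1 and 13 in library 2, giving 2.34 and 0.61 TPM. Ighe, of IgE, had 0 reads, a count that allows up to 3 in each library.

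Lambda reads can be divided among near-identical genes, and the coding sequences of Iglc2 and Iglc3 are shown for that reason, with their 11 differences over 314 aligned bases in capitals. The first 270 aligned bases, which hold every difference, are printed from the transcripts on the minus strand of chromosome 16 (GRCm38, GENCODE M21), for Iglc2 from 19198852 to 19198583 and for Iglc3 from 19065681 to 19065412.
Iglc2: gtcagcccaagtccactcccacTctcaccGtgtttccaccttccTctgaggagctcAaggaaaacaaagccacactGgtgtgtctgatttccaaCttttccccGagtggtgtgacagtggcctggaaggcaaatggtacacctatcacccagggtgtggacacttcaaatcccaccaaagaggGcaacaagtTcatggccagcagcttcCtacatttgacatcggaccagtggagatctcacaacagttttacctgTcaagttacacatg
Iglc3: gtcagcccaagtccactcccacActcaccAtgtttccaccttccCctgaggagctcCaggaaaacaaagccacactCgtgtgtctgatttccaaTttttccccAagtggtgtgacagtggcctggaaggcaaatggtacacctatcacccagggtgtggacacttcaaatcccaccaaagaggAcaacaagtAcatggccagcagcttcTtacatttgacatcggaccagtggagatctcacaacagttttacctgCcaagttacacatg

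The coding identity of Iglc2 and Iglc3 was 96.5%, with an identical stretch of up to 79 bases, so that 43 windows of 50 bases were shared. Iglc1 had an identity of 73.2% with Iglc2 and 73.9% with Iglc3, and none of its windows occurred in another gene. The fractional counts of Iglc2, 53.51 and 50.68, and of Iglc3, 44.47 and 50.32, show reads divided by the model. Iglc3 also shared 47 windows with 2010309G21Rik, so the counts of these lambda genes are uncertain. Every 50-base window of Ighm, Ighd, Igha, Igkc and Cd79b was found in no other gene. Of the windows of Cd79a, 91.7% were found in no other gene, and the other 117 were shared with Gm32220.

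Genes that act with the members were present in part. Of 10 genes of B cell receptor signalling 8 were detected, led by Vav1 at 182 and 161 TPM, Cd81 at 137 and 130 TPM and Prkcb at 101.52 and 101.59 TPM, which T cells also use. Bcl10 was at 73.53 and 67.92 TPM and Vav2 at 27.6 and 23.35 TPM. The kinases that B cells rely on were low, with Syk at 1.71 and 2.47 TPM and Lyn at 3.15 and 3.48 TPM, and the phospholipase gene Plcg2 was at 0.69 and 0.16 TPM. Of 10 factors known to bind the heavy chain intronic enhancer or the octamer motif 9 were detected. Ets1 stood at 878 and 771 TPM, close to Ighm, Tcf3, encoding E2A, at 109.91 and 92.19 TPM and Pou2f2, encoding OCT2, at 94.52 and 97.7 TPM. Spi1, encoding the myeloid and B cell factor PU.1, was at 1.18 and 0.68 TPM. No binding was measured, so these levels say only which factors were expressed.

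Of 6 genes listed under immunoglobulin receptors and class switching 2 were detected, beside 23.9% of all annotated genes. They were Fcrl1, an Fc receptor-like gene, at 10.98 and 12.39 TPM and Fcmr, the receptor for IgM, at 7.58 and 5.95 TPM. The polymeric receptor gene Pigr was at 0.15 and 0.33 TPM.

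The libraries were compared to show how far each member differed between them, which does not measure its full technical error. The comparison is between these libraries alone, by an exact binomial test on estimated counts with Benjamini-Hochberg adjustment over 18746 genes, and it covers counting error only. It called 4 of 10 members at an adjusted p of 0.05, against 36.5% of all genes tested, a like share. Of the members 3 were called higher in library 1 (background 19.2%) and 1 higher in library 2 (background 17.3%). The median log2 ratio of library 2 over library 1 was -0.13 over the members and 0.00 over all genes.

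Igha gave the largest difference. It was 13.5-fold higher in library 1 (95% interval 5.98 to 37.9; exact binomial adjusted p = 6.452e-17), and it was also called by the exact test of edgeR, which adds a common dispersion to the counting error (edgeR adjusted p = 7.074e-08). Of the members this edgeR test called 1, against 2.98% of all genes (1.64% for library 1 above library 2, and 1.33% for the other direction). Ighg3, an IgG constant gene outside the members, was higher in library 1 too, by 3.69-fold (exact binomial adjusted p = 3.841e-05, edgeR adjusted p = 0.02336). The plasma cell genes had 2 of 5 tested genes called higher in library 1, Xbp1 and Prdm1, by the exact binomial test (background 19.2%), none called higher in library 2, and 0 called by edgeR. Other lists moved as well. Of 8 myeloid genes 2 were called higher in library 1 and 1 in library 2. There edgeR called 2, Adgre1, higher in library 1, and S100a8, higher in library 2. Of 18 B cell identity genes 4 and 3 were called, with 0 by edgeR. Of 10 genes of B cell receptor signalling 5 and 3 were called, with 1 by edgeR, Plcg2, higher in library 1. Of 10 enhancer and octamer factors 4 and 4 were called, and of 12 T cell and Treg genes 2 and 5. Of 6 immunoglobulin receptor and class switch genes 1 and 2 were called, and of 2 tested B cell precursor genes 0. Of 6 tested plasmacytoid dendritic cell genes 3 and 1 were called, and edgeR called 0 in each of these last lists. The shares over all genes were 19.2% higher in library 1, 17.3% higher in library 2 and 2.98% by edgeR. The part of these lists in the difference of Igha was not tested.

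Ighm itself differed little. It was 1.09-fold higher in library 1 (95% interval 1.07 to 1.11; exact binomial adjusted p = 9.127e-22), a difference within the coefficient of variation of 15.1% that edgeR's common dispersion gives, and edgeR did not call it (edgeR adjusted p = 1). Ighd was 1.37-fold higher in library 1 (95% interval 1.14 to 1.65; exact binomial adjusted p = 0.00338; edgeR adjusted p = 0.9537). Iglc1 was lower in library 1, at 0.308 times its level in library 2 (95% interval 0.127 to 0.674; exact binomial adjusted p = 0.005345; edgeR adjusted p = 0.1857), on 9 and 27 counts. The other 6 members passed neither test, and the interval for Jchain, the widest of them, ran from 0.914 to 3.40.

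**Figure D5:**
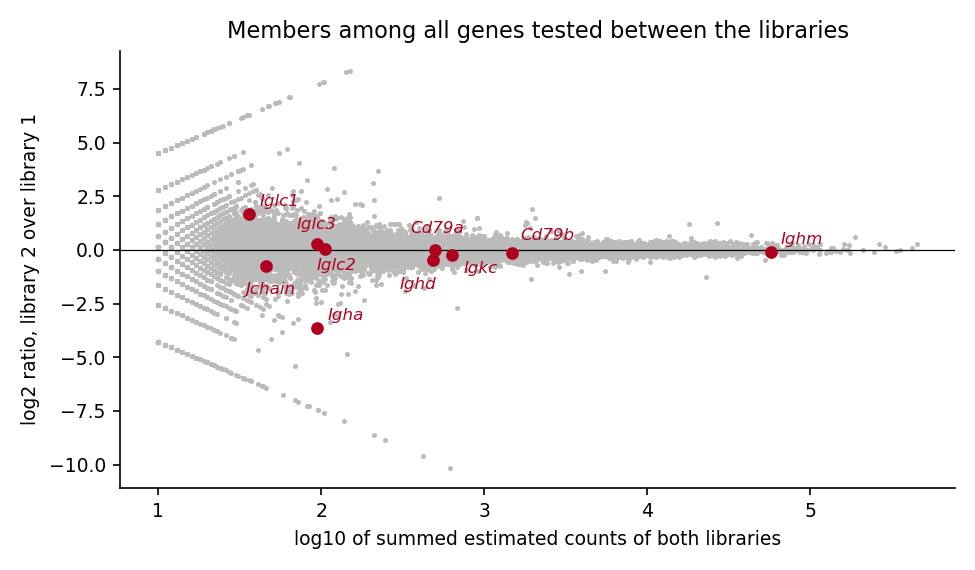
Log2 ratio of library 2 over library 1 against log10 of the summed estimated counts, for 18746 genes in grey and the 10 members in red. Ighm lies at high counts near 0, and Igha lies below the other members at -3.65.

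Ighm also led the members by the deposited M4 counts, but by less. Ighm had 3155 M4 counts in each library, 10.2% and 12.0% of its estimated counts on M21. The share was 51.3% and 56.0% for Cd79a, 50.2% and 48.2% for Cd79b, 66.2% and 70.1% for Igkc, and 3.40% and 3.66% for Trac. The tables thus differed more for abundant genes, and the median share in library 1 fell from 52.3% for genes of 100 to 1000 estimated counts to 3.58% at 30000 or more. M4 counts per exonic base were 1.67 for Ighm in both libraries. Of 10047 genes with 100 or more estimated counts in library 1 and an M4 row, 6 had more. In library 1 the median per exonic base was 0.473 at 10000 to 30000 estimated counts and 0.443 at 30000 or more. This scale was thus flat for abundant genes. Ighm was chosen for its level, so its place on this scale is a description. Iglc1 and Iglc3 had no M4 row, and the ratio of Ighm to Cd79a was 23.5 by M4 counts.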

How the data were processed

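PolyA plus RNA of a single Treg biosample was measured in 2 technical libraries, which form 1 group, so no conditions were compared. Per the file headers, the authors' gene and transcript tables on mm10 hold estimated counts, TPM, FPKM, posterior means and SDs, and each transcript's share of its gene as a percent, all on GENCODE M21. A further table that the authors deposited holds whole-number counts per gene on GENCODE M4. Which aligner, quantifier and counter made them is not given in the sources used here. Deposited effective lengths were the length less 49 bases in 100% of transcripts.

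The members and all gene lists were chosen with earlier results of these data known. Named genes are the members, list genes (values for the 3 highest of a list and those at 10 TPM or more, with defining markers added after their values were seen), the 3 highest V segments of each immunoglobulin group, annotations between Ighm and the J segments, and the 3 protein-coding genes on either side of Ighm in level. Some list genes are not reported here. Detection meant 1 TPM or more in both libraries. The libraries held 34697128 and 32049199 estimated counts, and 0.197% and 0.212% lay in rows without a gene, which were left out. The M4 totals were 9576557 and 8937887 counts, and 8 of 10 members had an M4 row.

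Library sizes were scaled by TMM in edgeR 4.0.16. Estimated counts were rounded, and genes with 10 or more counts in sum were tested by an exact two-sided binomial test, adjusted by Benjamini-Hochberg at 0.05. It covers counting error only, and PCR copies are not independent molecules. With a single library on each side, edgeR's quasi-likelihood test leaves no residual degrees of freedom, so the exact test of edgeR with the common dispersion, estimated from both libraries as 1 group, was an alternative. Log2 ratios carry a prior count of 0.5, and intervals are exact 95% binomial intervals. Both tests were tried on simulated data, the binomial test with counting error only and the edgeR test with added dispersion. The binomial simulation left out the dispersion of these libraries, so it says nothing of error beyond counting. DESeq2 1.42.0 size factors, library totals, other filters, units and M4 counts were tried as alternatives. Sequences came from GENCODE M21 transcripts (GRCm38), the release of the tables. Coordinates are 1-based.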

Additional observations from a re-analysis of the deposited data

How the results depend on the processing

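No paired analysis was possible because there is 1 group, whose libraries are technical replicates. The number of detected B cell identity genes followed the minimum, with 17 at 0.1 TPM and 1 at 5 TPM against 9 at 1 TPM. Ighm stood at 542 by FPKM, a unit on another scale. The ratio of Ighm to Cd79a was 114 by estimated counts scaled to library size, which are not corrected for length, and 23.5 by M4 counts. Heavy V segments came to 6.42% of Ighm by posterior mean TPM, 0.274% by such scaled counts and 1.28% with functional segments only, and kappa V segments to 184% and 44.5% of Igkc by the first and second of these. The heavy share stayed below the kappa share under each of these settings. The share of Ighm-202 was 65.7% by estimated counts. Of the members, 1 was called by edgeR's exact test and 1 by the exact binomial test on M4 counts, against 4. With M4 counts the log2 ratio of Ighm turned to 0.087 (exact binomial adjusted p = 0.0904). Its M4 count was 3155 in each library, so this ratio reflects only the scaling by library size. Why the M4 counts of Ighm were equal was not tested. Leaving out a library gave 8 to 10 detected members and 10 to 12 B cell identity genes. Low counts limit Igha, Jchain, Iglc1 and every single V segment, and the 2 technical libraries leave the variation between mice unmeasured.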
